A study of Mus musculus with 6 samples.

Results

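The genes described here are the glutathione S-transferases (GST), UDP-glucuronosyltransferases (UGT) and sulfotransferases (SULT) of mouse hepatocytes. They were chosen by name: a probe set had to carry exactly 1 gene symbol in the platform annotation, and that symbol had to be a numbered member of the Gst classes a, k, m, o, p, t and z, of Ugt1 to Ugt3, or of Sult. This gave 49 genes of the 22180 genes tested, 18 GST, 10 UGT and 21 SULT, each with 1 probe set. The rule itself uses names and no measured value, but the families were chosen with earlier results of these data known. Primary hepatocytes of adult male wild-type C57Bl/6 mice were held in William's medium without serum and received for 4 h either GW4064 at 2 µM, which activates the bile acid receptor FXR, or its solvent DMSO. The design names 3 independent preparations, and 3 arrays per group carry the numbers 1, 2 and 3 in their titles, but the labels do not tie a number to a preparation or give the animals in each. The question put to these arrays is which genes the agonist regulates in hepatocytes. All values below are RMA log2 intensities, so a difference of 1 is a doubling of signal, and every array value is listed in the order of replicates 1, 2 and 3.

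The 3 families carry out the conjugation phase of xenobiotic and steroid metabolism. GSTs join glutathione to electrophiles, UGTs transfer glucuronic acid from UDP-glucuronate to bilirubin, steroids, bile acids and drugs, and SULTs transfer sulfate from PAPS to phenols, steroids and bile acids. The products are more soluble in water and leave the hepatocyte through transporters of the canalicular and basolateral membranes. FXR senses bile acids and binds DNA with RXR, classically at inverted repeats of the hexamer AGGTCA spaced by 1 base, and bile acid conjugation is among the functions it is known to regulate.

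The change of the 49 genes was small beside that of the strongest responders, but not beside that of genes at large. The median size of the change, sign aside, was 0.13 in the members and 0.082 in all genes. A change over 1.5-fold in either direction was seen in 3 of 49 members and in 94 of 22180 genes. With GW4064, 29 members (59.2%) were higher and 20 were lower, against 44.6% of all genes higher and 55.4% lower. The median change was 0.042 over the members and -0.016 over all genes. Without a block no member passed an adjusted p of 0.05 in limma, where 0.0496% of all genes were called higher and 0% lower. With the replicate number as a block, Gsta4 alone rose and no member fell, against 0.0721% of all genes higher and 0.00902% lower. Counted by an unadjusted p under 0.05, where no gene is taken as called, 5 members were higher and 1 was lower without the block (2.60% and 3.06% of all genes), and 9 and 3 with it (4.01% and 5.12%). The GW4064 arrays lay wholly above the DMSO arrays in 5 members (10.2%; 4.58% of all genes) and wholly below in 3 (6.12%; 6.19% of all genes). All 3 same-numbered pairs were higher in 16 members (32.7%; 12.6% of all genes) and lower in 6 (12.2%; 18.6% of all genes). Close relatives with similar sequences are among the members, which are therefore not independent of each other. A lower level may come from fewer cells of a type or from less RNA per cell, which cannot be told apart in these bulk samples.

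**Figure D1:**
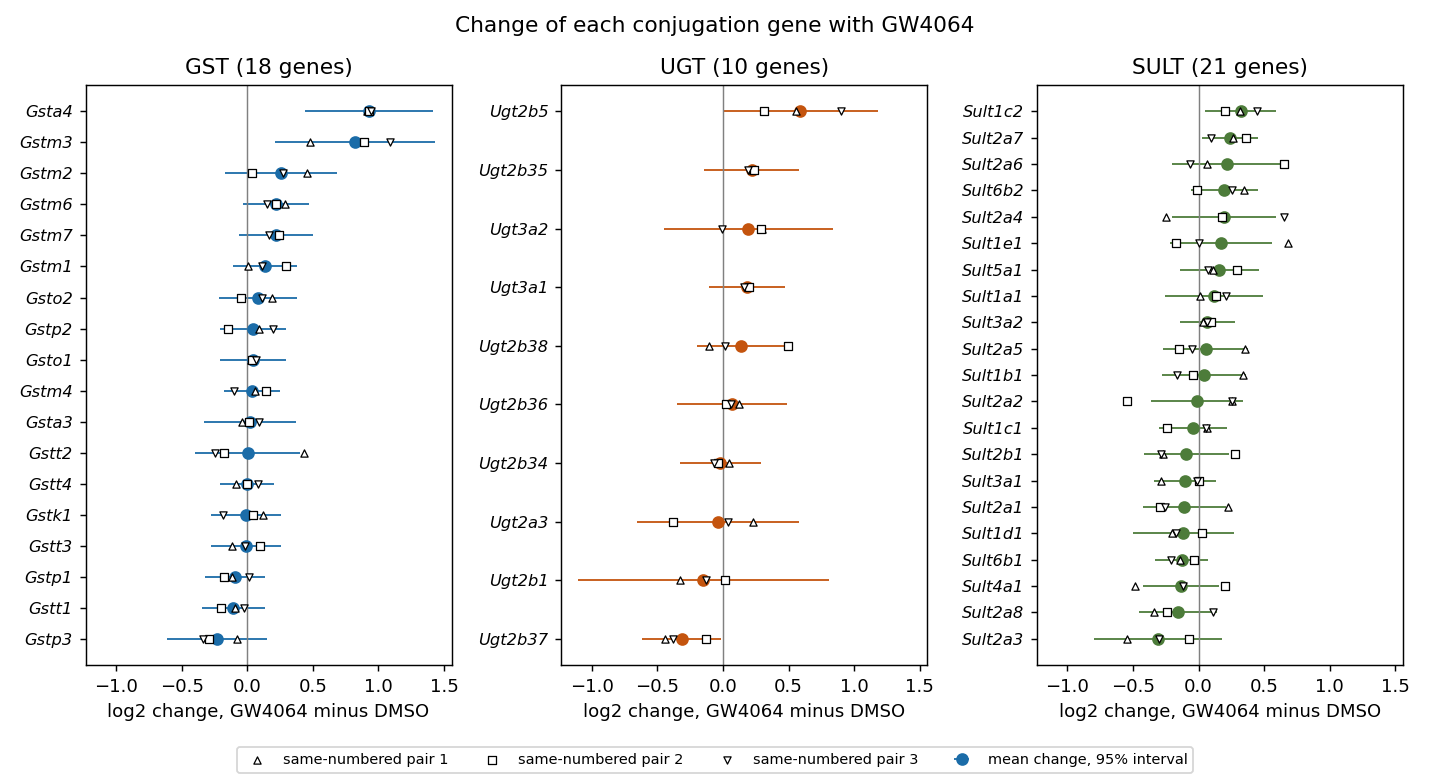
Change of each of the 49 conjugation genes with GW4064 on the log2 scale (x axis), in panels by family. Open marks are the 3 same-numbered pairs and the filled marks with bars are the mean change and its 95% interval without the block. Gsta4 at 0.93, Gstm3 at 0.82 and Ugt2b5 at 0.59 lie farthest to the right, and Ugt2b37 at -0.32 farthest to the left.

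The 250 bases before the annotated start are shown for 4 genes whose values are given below: Gstm3, with the largest change among members with a promoter entry, and 3 genes of the Ugt2b cluster, where Ugt2b5 and Ugt2b37 had changes of opposite sign. They were chosen after the values were seen. The sequences are from RefSeq on GRCm38.p6, all on the minus strand and written 5′ to 3′, and capitals mark the nuclear receptor hexamer AGGTCA.
Gstm3 (chr3:107969175-107969424): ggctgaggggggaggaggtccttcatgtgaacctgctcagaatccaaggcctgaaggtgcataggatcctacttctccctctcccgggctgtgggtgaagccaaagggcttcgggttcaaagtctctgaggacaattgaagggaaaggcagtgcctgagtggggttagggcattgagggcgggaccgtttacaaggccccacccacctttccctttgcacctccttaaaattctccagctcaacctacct
Ugt2b5 (chr5:87140341-87140590): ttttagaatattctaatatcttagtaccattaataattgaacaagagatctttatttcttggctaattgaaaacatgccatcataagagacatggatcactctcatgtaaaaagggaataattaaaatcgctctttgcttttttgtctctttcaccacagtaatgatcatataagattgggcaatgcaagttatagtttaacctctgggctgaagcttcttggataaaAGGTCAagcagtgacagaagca
Ugt2b37 (chr5:87254789-87255038): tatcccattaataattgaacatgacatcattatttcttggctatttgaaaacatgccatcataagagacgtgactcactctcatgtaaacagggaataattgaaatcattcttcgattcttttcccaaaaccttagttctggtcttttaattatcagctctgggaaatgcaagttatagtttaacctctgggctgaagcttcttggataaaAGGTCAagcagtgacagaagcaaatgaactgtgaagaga
Ugt2b38 (chr5:87424204-87424453): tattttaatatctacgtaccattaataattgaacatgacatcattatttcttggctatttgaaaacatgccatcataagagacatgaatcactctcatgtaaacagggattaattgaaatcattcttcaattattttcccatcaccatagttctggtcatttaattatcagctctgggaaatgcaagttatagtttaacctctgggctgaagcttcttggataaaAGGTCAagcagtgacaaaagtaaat

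The 3 Ugt2b windows share an unbroken run of 62 bases that holds the hexamer, which begins 22, 39 and 25 bases before the start of Ugt2b5, Ugt2b37 and Ugt2b38. Over the whole window Ugt2b37 and Ugt2b38 were 85.2% identical, Ugt2b38 and Ugt2b5 81.5%, and Ugt2b37 and Ugt2b5 73.0%. Windows were at hand for 42 members, with 52 entries, and 4 motifs were searched on both strands. The 7 members without an entry were Gsta4, Gstt2, Sult2a1, Sult2a2, Sult2a7, Sult4a1 and Ugt3a2. No motif was searched for these, so the counts below do not cover Gsta4. AGGTCA was in 9 of the 52 entries (17.3%) and in 14.0% of all promoter windows of the same length. The 9 entries belong to Gstk1, Sult1b1, Sult1e1, Sult2a8 and 5 of the 7 Ugt2b genes, Ugt2b5, Ugt2b35, Ugt2b36, Ugt2b37 and Ugt2b38. This share is near that of all windows. It also counts related sequences more than once, since the windows of Ugt2b5, Ugt2b37 and Ugt2b38 are alike. The full FXR inverted repeat, AGGTCANTGACCT, was in no member window and in 0.00609% of all windows. This exact form was in only 2 of 32851 windows, so its lack among 52 entries says nothing about FXR sites. The core of the antioxidant response element, TGACNNNGC, was in 2 member windows (3.85%; 10.2% of all), those of Gsta3 and Gstm7. GTTAAT, a recognition hexamer of the hepatic factor HNF1, was in 10 (19.2%, beside 6.43% of all). These were Gsta3, Sult1a1, Sult1d1, Sult2a3, Sult2a4, Sult2a5, Sult2a6, Sult3a2, Ugt2a3 and Ugt3a1. The Sult2a windows among them are alike around the hexamer, so the share counts related sequences more than once. The inverted repeat contains AGGTCA, and the complement of AGGTCA can overlap the antioxidant core. A match describes letters in a window and not a bound site.

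Among the GST genes, most of which encode cytosolic enzymes, 12 of 18 were higher and 6 lower with GW4064, and 13 were higher after quantile normalization (Gstk1 turned) or median centring (Gstt4 turned). The family's median change was 0.038, with medians of 0.075, 0.038 and 0.085 in pairs 1, 2 and 3. The largest change was in Gsta4 (probe set 17519649), an alpha class enzyme known for conjugating 4-hydroxynonenal, a product of lipid peroxidation. Its array values were 7.72, 8.27 and 7.58 with DMSO and 8.64, 9.20 and 8.52 with GW4064. Every GW4064 array lay above every DMSO array, and replicate 2 was the highest array in both groups. The level went from 7.86 ± 0.37 to 8.79 ± 0.36 (mean ± SD, n = 3), a log2 change of 0.93 (SE 0.22) or 1.90-fold (95% interval 1.36 to 2.67). The same-numbered pairs differed by 0.92, 0.93 and 0.95, close together although the means of the replicate numbers spanned 0.69. The limma adjusted p was 0.512 without the block and 0.0374 with it. With the block, the limma adjusted p was 0.0515, 0.155 and 0.278 when pair 1, 2 or 3 was left out. The call was thus lost without any one of the pairs, while the change was 0.94, 0.93 and 0.92. In these settings, calls over all genes went from 16 higher and 2 lower to 10 and 3, 6 and 0, and 4 and 0. Gsta3 (probe set 17211405), the other alpha gene with a probe set of its own, had a change of 0.019 (SE 0.16).

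In the mu class all 6 Gstm genes had a positive change, from 0.034 in Gstm4 to 0.82 in Gstm3 with a median of 0.22. All 6 were also positive after quantile normalization or median centring. None passed the adjusted threshold in either fit. Mu enzymes detoxify epoxides and quinones, and their genes lie side by side on chromosome 3 in the order Gstm7, Gstm6, Gstm3, Gstm2, Gstm1 and Gstm4. Gstm3 (probe set 17409130), in the middle of the row, measured 8.61, 8.64 and 7.67 with DMSO and 9.09, 9.52 and 8.76 with GW4064. Its GW4064 arrays lay above all DMSO arrays, and replicate 3 was the lowest in both groups. The change was 0.82 (SE 0.27), or 1.76-fold (95% interval 1.15 to 2.69), with pair differences of 0.48, 0.89 and 1.09 and adjusted p of 0.783 without and 0.161 with the block. It was 0.50 without the DMSO array of replicate 3 and 1.00 without the GW4064 array of that number.

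The neighbours of Gstm3 had smaller changes. Gstm6 (probe set 17409113) measured 4.04, 4.32 and 4.20 with DMSO and 4.33, 4.55 and 4.35 with GW4064. Its groups did not overlap, although the change was only 0.22 (SE 0.11), with adjusted p of 0.928 and, blocked, 0.499. Gstm7 (probe set 17409099) measured 4.68, 4.90 and 4.61 with DMSO and 4.92, 5.14 and 4.78 with GW4064, a change of 0.22 (SE 0.12). Gstm2 (probe set 17409142) measured 6.83, 7.53 and 6.89 with DMSO and 7.28, 7.57 and 7.17 with GW4064, a change of 0.26 (SE 0.19). In both genes each GW4064 array was above the DMSO array of its number but the groups overlapped, with adjusted p from 0.492 to 0.977 over the fits. Gstm1 (probe set 17409154), a major mu enzyme of mouse liver, measured 8.09, 8.08 and 7.97 with DMSO and 8.10, 8.37 and 8.08 with GW4064. Its change of 0.14 (SE 0.11) came mostly from replicate 2, and the groups overlapped. Gstm4, at the end of the row, had a change of 0.034 and was the mu gene whose pairs differed in sign.

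**Figure D2:**
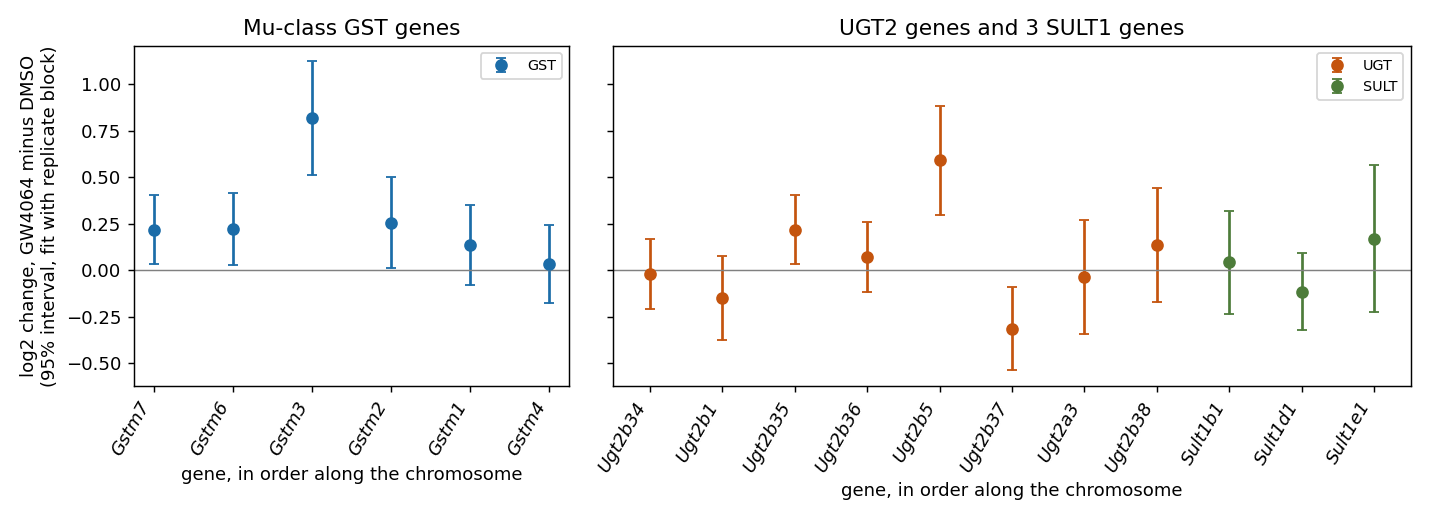
Change with GW4064 on the log2 scale (y axis, with 95% intervals from the blocked fit) for conjugation genes in their order along the chromosome (x axis, rank and not distance). The 6 Gstm genes all lie above 0, while the Ugt2 genes and the 3 Sult1 genes of the same cluster lie on both sides of 0.

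The pi class, which conjugates many electrophilic drugs, has 3 genes here. Gstp1 (probe set 17361073) was brighter than 99.7% of genes and measured 11.44, 11.58 and 11.54 with DMSO and 11.33, 11.40 and 11.56 with GW4064, a change of -0.094 (SE 0.10). Gstp2 (probe set 17231116) measured 10.44, 10.75 and 10.54 with DMSO and 10.53, 10.60 and 10.74 with GW4064, a change of 0.046 (SE 0.11) whose sign turned in 3 of the settings with arrays left out. Gstp1 and Gstp2 are near-identical copies, and another probe set carries both symbols, so their signals may not be separate. Gstp3 (probe set 17361090) measured 10.54, 10.19 and 10.65 with DMSO and 10.46, 9.90 and 10.32 with GW4064. Each of its pairs was lower, with differences of -0.075, -0.29 and -0.34, and its change of -0.23 (SE 0.17) was the lowest of the GST family, with adjusted p of 0.964 and, blocked, 0.515.

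The remaining GST genes differed little. Gstt1 (probe set 17241934), a theta enzyme known for acting on small halogenated compounds, measured 7.81, 8.06 and 7.81 with DMSO and 7.71, 7.87 and 7.78 with GW4064. All 3 pairs were lower and the groups overlapped, with a change of -0.11 (SE 0.11). The changes of Gstt2, Gstt3 and Gstt4 were 0.0030, -0.012 and -0.0036. The omega genes Gsto1 and Gsto2, which act as thiol transferases and reductases, had changes of 0.042 and 0.083, and mitochondrial and peroxisomal Gstk1 one of -0.0073.

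**Figure D3:**
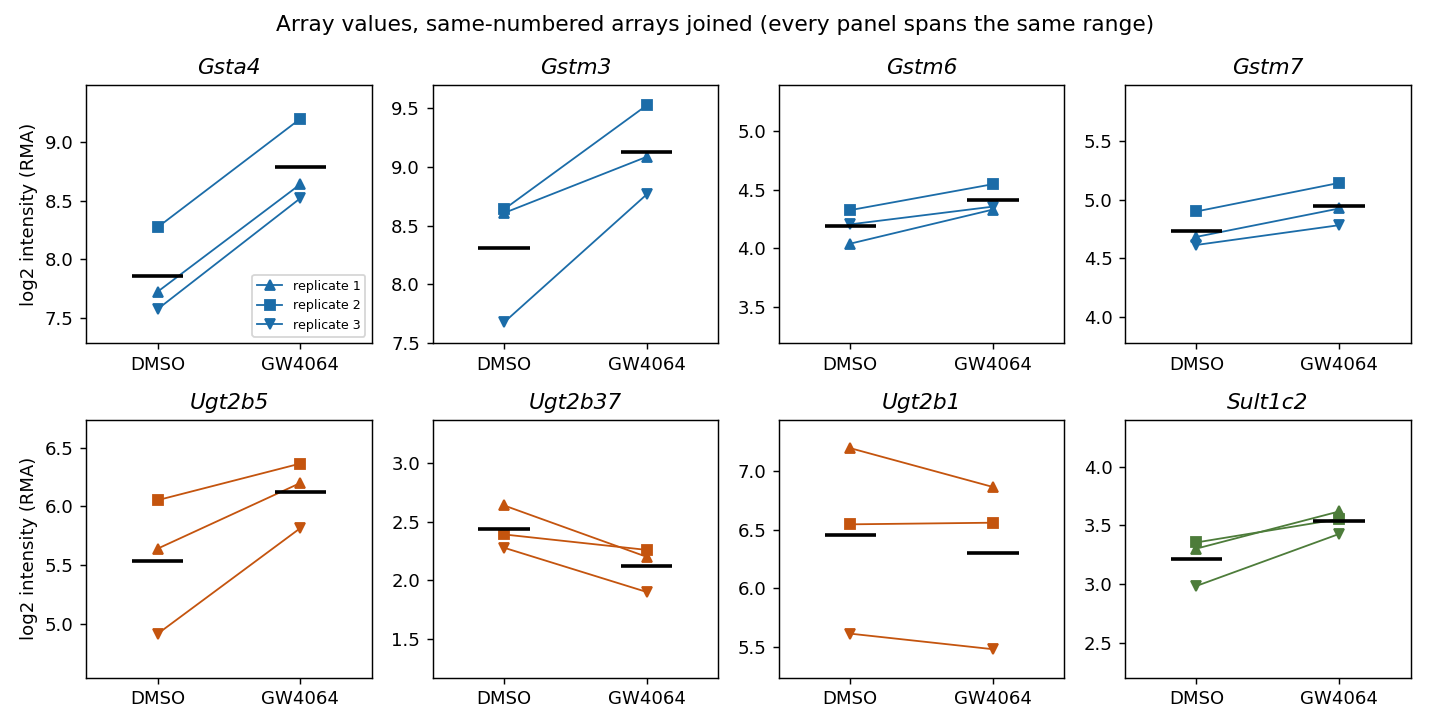
RMA log2 intensity (y axis) of selected conjugation genes on each array, DMSO beside GW4064, with a line joining the arrays of the same replicate number. The lines of Gsta4 run nearly parallel, from 7.58 to 8.27 with DMSO and from 8.52 to 9.20 with GW4064, and those of Ugt2b37 slope down.

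The UGT genes measured here belong to the Ugt2 and Ugt3 families, since no probe set of the Ugt1a locus carried a single symbol. With GW4064, 6 of 10 were higher and 4 lower. Their median change was 0.10, with pair medians of 0.16, 0.11 and 0.026. UGT2B enzymes sit in the endoplasmic reticulum and glucuronidate steroids, bile acids and drugs. Ugt2b5 (probe set 17449346) had the largest change of the family and measured 5.64, 6.05 and 4.91 with DMSO and 6.20, 6.37 and 5.82 with GW4064. Replicate 3 was the lowest array of both groups, and the GW4064 array of replicate 3 lay below the DMSO array of replicate 2, so the groups overlapped. The change was 0.59 (SE 0.26), or 1.51-fold (95% interval 1.00 to 2.27). Pair differences were 0.56, 0.31 and 0.90, with adjusted p of 0.881 and, blocked, 0.265. The change was 0.28 without the DMSO array of replicate 3 and 0.85 without that of replicate 2.

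Ugt2b37, the next gene of the cluster (probe set 17449355), went the other way and measured 2.64, 2.39 and 2.28 with DMSO and 2.20, 2.26 and 1.90 with GW4064. All its GW4064 arrays lay below the DMSO arrays, with a change of -0.32 (SE 0.13) and adjusted p of 0.863 and, blocked, 0.424. Its signal was dim, above that of only 11.9% of genes. Ugt2b38 (probe set 17449372), whose start window is the most like that of Ugt2b37, was dimmer still and measured 1.74, 1.75 and 1.75 with DMSO and 1.64, 2.24 and 1.76 with GW4064. Its change of 0.14 (SE 0.15) rested on the GW4064 array of replicate 2 and was -0.045 without it.

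The brighter Ugt2b genes had changes smaller than the differences between their replicates. Ugt2b35 (probe set 17438621) measured 7.93, 8.16 and 7.68 with DMSO and 8.15, 8.40 and 7.88 with GW4064. Its pairs were all higher by nearly the same amount, 0.22, 0.24 and 0.19, with a change of 0.22 (SE 0.16), overlapping groups and adjusted p of 0.970 and, blocked, 0.490. Ugt2b36 (probe set 17449332) measured 7.91, 8.13 and 7.52 with DMSO and 8.03, 8.16 and 7.59 with GW4064, a change of 0.071 (SE 0.19). Ugt2b34 (probe set 17449313), brighter than 98.8% of genes, measured 9.90, 10.13 and 10.35 with DMSO and 9.95, 10.09 and 10.29 with GW4064, a change of -0.019 (SE 0.14). In both genes the sign turned when single arrays were left out. Ugt2b1 (probe set 17449322), a major hepatic enzyme of rodents that glucuronidates steroids, measured 7.20, 6.55 and 5.61 with DMSO and 6.86, 6.56 and 5.48 with GW4064. Replicates 1 and 3 lay over 1 log2 unit apart within each group, while the change was -0.15 (SE 0.42). Ugt2a3, in the same cluster, had a change of -0.037 with pair differences of 0.23, -0.38 and 0.039.

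Both Ugt3a genes, whose enzymes use sugars other than glucuronic acid, had positive changes. Ugt3a1 (probe set 17310226) measured 2.97, 3.05 and 2.73 with DMSO and 3.16, 3.25 and 2.89 with GW4064, with pairs higher by 0.19, 0.20 and 0.16 and a change of 0.18 (SE 0.13). Ugt3a2 (probe set 17310237) measured 6.31, 5.82 and 5.48 with DMSO and 6.61, 6.11 and 5.47 with GW4064, a change of 0.19 (SE 0.28). The groups of both genes overlapped, and replicate 3 was the lowest array in each group of both.

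SULT genes were mostly dim in these male hepatocytes. Of 21, 14 had a mean intensity under the 25th percentile of all genes and 19 below the median of all genes, against 2 of 18 GST and 3 of 10 UGT genes below that median. Intensity depends on the probes as well as on the RNA, so these places describe how well each gene could be measured. Sulfotransferases of the 2a and 3a groups are known as female-predominant in mouse liver. Only male mice were used and SULT genes of other groups were dim too, so a part of sex in these levels was not tested. With GW4064, 11 SULT genes were higher and 10 lower, with a median change of 0.041 and pair medians of 0.061, -0.00044 and 0.0027. The brightest were Sult1a1, a phenol sulfotransferase, and Sult1d1, which acts on catecholamines and other phenols. Sult1a1 (probe set 17496354) measured 10.33, 10.32 and 9.81 with DMSO and 10.34, 10.45 and 10.02 with GW4064, a change of 0.12 (SE 0.17). Sult1d1 (probe set 17449406) measured 8.78, 9.20 and 9.03 with DMSO and 8.58, 9.22 and 8.86 with GW4064, a change of -0.12 (SE 0.17). The groups overlapped in both.

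Sult1c2 (probe set 17345989) had the largest change of the family and measured 3.30, 3.36 and 2.98 with DMSO and 3.62, 3.55 and 3.43 with GW4064. Its GW4064 arrays lay above all DMSO arrays, with pair differences of 0.32, 0.20 and 0.44, a change of 0.32 (SE 0.12) and adjusted p of 0.852 and, blocked, 0.380. Its intensity was above that of 34.9% of genes. Sult5a1 (probe set 17513860) measured 3.56, 3.12 and 3.47 with DMSO and 3.67, 3.41 and 3.54 with GW4064, with every pair higher, overlapping groups and a change of 0.16 (SE 0.13). Sult6b2 (probe set 17472581) measured 2.48, 2.85 and 2.55 with DMSO and 2.83, 2.85 and 2.80 with GW4064, a change of 0.20 (SE 0.11) in which pair 2 did not take part. Sult6b1 (probe set 17347376) measured 2.21, 2.15 and 2.19 with DMSO and 2.06, 2.11 and 1.98 with GW4064. Its GW4064 arrays lay just below the DMSO arrays, with a change of -0.13 (SE 0.09).

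Sult2a enzymes sulfate bile acids and hydroxysteroids, and their 8 genes form a cluster on chromosome 7. Along it the changes took both signs. Sult2a7 (probe set 17486719) measured 1.60, 1.60 and 1.70 with DMSO and 1.87, 1.96 and 1.79 with GW4064. The groups did not overlap and the change was 0.24 (SE 0.09), with adjusted p of 0.858 and, blocked, 0.509, but the signal was above that of only 2.73% of genes. Sult2a3 (probe set 17486683) measured 3.41, 2.58 and 2.69 with DMSO and 2.87, 2.50 and 2.38 with GW4064, with pair differences of -0.54, -0.076 and -0.30, with a change of -0.31 (SE 0.22) and adjusted p of 0.963 and, blocked, 0.490. Its DMSO array of replicate 1 stood above the other arrays, and the change was -0.049 without it. Sult2a6 (probe set 17486692) measured 1.76, 1.79 and 1.68 with DMSO and 1.82, 2.45 and 1.62 with GW4064, and its change of 0.22 (SE 0.19) was -0.022 without the GW4064 array of replicate 2. Sult2a1, Sult2a2, Sult2a4, Sult2a5 and Sult2a8 had changes of -0.11, -0.012, 0.19, 0.053 and -0.16, none past the adjusted threshold.

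The other SULT genes likewise did not pass it. Sult1b1, a thyroid hormone sulfotransferase, had a change of 0.041, Sult1c1 of -0.041 and Sult1e1, the oestrogen sulfotransferase, of 0.17. The cholesterol sulfotransferase gene Sult2b1 had a change of -0.093, and brain-type Sult4a1 of -0.14. Sult3a1 and Sult3a2 had changes of -0.10 and 0.065. All GW4064 arrays of Sult3a1 lay below its DMSO arrays, but only just, at an intensity near the bottom of the array. Its highest GW4064 array measured 1.63597 and its lowest DMSO array 1.63641.

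Conjugation genes differed more between replicate numbers than most genes did. When the DMSO and GW4064 arrays of a number were averaged, the range over the 3 numbers had a median of 0.30 in the members and 0.19 in all genes. It was 0.54 in the UGT genes, 0.26 in the GST genes and 0.26 in the SULT genes. The range was over 0.5 in 10 members (20.4%) and in 5.21% of all genes. The widest was that of Ugt2b1, whose number means were 7.03, 6.55 and 5.55. In 43 of 49 members (87.8%) the range exceeded the size of the GW4064 change, as it did in 78.8% of all genes. It exceeded the change in all 10 UGT genes, in 16 of 21 SULT genes (76.2%) and in 17 of 18 GST genes, Gsta4 being the one where the change of 0.93 was wider than the range of 0.69.

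**Figure D4:**
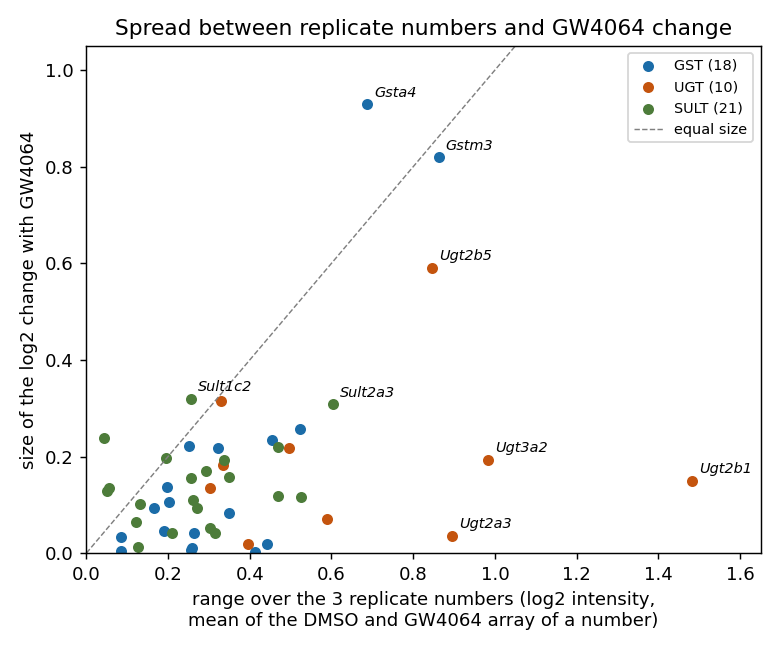
Range of the replicate-number means (x axis, log2 units, DMSO and GW4064 averaged) against the size of the GW4064 change (y axis, log2 units) for each member, coloured by family. Most points lie below the line of equality, with Ugt2b1 farthest right at a range of 1.48 and Gsta4 above the line.

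Other genes of the pathway were read beside the families, in lists of cofactor supply, microsomal and other transferases, conjugate removal, exporters and regulators. Of 38 listed, 34 had a probe set of their own, with 18 changes above 0, 16 below and a median of 0.0085. An unadjusted p under 0.05 was met by 5 higher genes and 3 lower ones without the block (2.60% and 3.06% of all genes), and by 6 and 3 with it (4.01% and 5.12%). Without the block these were Gclm, Abcc2 and the regulators Nr1i2, Nr0b2 and Hnf4a among the higher genes, and Gclc and the regulators Nr1h4 and Ppara among the lower ones, and the block added Nfe2l2. Glutathione synthesis begins with glutamate-cysteine ligase. Its modifier subunit gene Gclm measured 9.76, 9.75 and 9.57 with DMSO and 10.45, 10.44 and 10.22 with GW4064, a change of 0.68 (SE 0.11) with adjusted p of 0.122 and, blocked, 0.0688. Its catalytic subunit gene Gclc measured 11.48, 11.48 and 11.29 with DMSO and 11.10, 11.15 and 10.92 with GW4064, a change of -0.36 (SE 0.10) with adjusted p of 0.688 and 0.265. The groups of neither overlapped and the 2 subunits had opposite signs, but neither passed the adjusted threshold.

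No gene for the supply of UDP-glucuronate or PAPS reached an unadjusted p under 0.05 in either fit. Ugdh, which makes UDP-glucuronate, had a change of -0.053 and Ugp2 of -0.16. The PAPS synthase genes Papss1 and Papss2 had changes of -0.095 and -0.087. The microsomal transferase genes Mgst1, Mgst2 and Mgst3 had changes of -0.014, 0.12 and -0.063. Of 4 exporter genes, Abcc2, which encodes the canalicular pump for glutathione and glucuronide conjugates, had the largest change, 0.30 (SE 0.11), with adjusted p of 0.802 and, blocked, 0.443.

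Among 9 regulators of these families, 2 passed the adjusted threshold in both fits. Nr1i2, the xenobiotic receptor PXR that activates many conjugation genes, rose by 1.72 (SE 0.20), with adjusted p of 0.0352 and, blocked, 0.0288. Nr0b2, the FXR target SHP, rose by 2.37 (SE 0.12), with adjusted p of 0.000117 and 0.00420. Nr1h4, which encodes FXR itself, had a change of -0.72 (SE 0.09) with adjusted p of 0.0535 and 0.0618. Hnf4a had a change of 0.55 (SE 0.12), Ppara of -0.48 (SE 0.12) and Nfe2l2, the antioxidant factor NRF2, of 0.23 (SE 0.13), with adjusted p from 0.151 to 0.957 over the fits.

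The cell type on the labels was read from marker lists. The 7 hepatocyte markers with a probe set were each brighter than at least 78.4% of genes, and their mean level was 10.55 to 10.64 on the DMSO arrays and 10.49 to 10.69 on the GW4064 arrays. Kupffer and macrophage markers averaged 4.48 to 4.69 with DMSO and 4.30 to 4.62 with GW4064, although Cd68 alone was brighter than 97.5% of genes. Stellate markers averaged 3.94 to 4.13 and 3.99 to 4.16, endothelial markers 4.51 to 4.88 and 4.57 to 4.88, and cholangiocyte markers 4.37 to 4.49 and 4.39 to 4.61. The ranges of the groups overlapped for every list, but list means hide single markers. The brightest stellate, endothelial and cholangiocyte markers, Acta2, Cdh5 and Sox9, were brighter than 75.2%, 73.5% and 87.5% of genes. Sox9 had a change of 0.45 (SE 0.17) with every pair higher and overlapping groups. Its limma adjusted p was 0.858 and, blocked, 0.204. Of the 5 cholangiocyte markers with a probe set, 4 were higher and 1 lower. Higher were also 2 of 7 hepatocyte and 2 of 6 Kupffer and macrophage markers. The same held for 5 of 6 stellate and 3 of 6 endothelial markers, and the rest were lower. The groups overlapped for every marker but Hnf4a, a hepatocyte marker that was higher. The part of non-hepatocytes in the changes above was not tested.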

How the data were processed

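The 6 arrays were 1-colour Affymetrix MoGene-2_0-st arrays, and sample titles gave the group and replicate number. The authors deposited 1 log2 intensity for each probe set and array, made with RMA, per the submitters' processing notes, which also name Partek. No source states the log base, which was inferred from values between 0.936 and 13.07. Of 41345 probe sets, 23521 had 1 symbol, 1814 several and 16010 none; of several for a gene, the one with the highest mean was kept. Array medians lay within 0.0527.

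All 22180 genes were fitted with limma 3.58.1 (lmFit, eBayes; R 4.3.3) without a block, with Benjamini-Hochberg adjustment over all genes and a threshold of 0.05, and again with the replicate number as a block. SE and intervals come from the first fit unless stated. With 3 arrays a group, exact permutation cannot reach a two-sided p under 0.1 and was not used. Deviations of same-numbered arrays from their group means correlated at 0.26, 0.34 and 0.45 (numbers from the titles), so blocked values stand beside the results. If the samples share a source, p-values measure technical spread only. The fit was tested on simulated data with planted changes larger than that of any member. This does not show how well changes as small as those of the members are found.

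Array values are given for members past the adjusted threshold in either fit, for the 6 GST, 6 UGT and 5 SULT genes with the smallest p, for the next 2 of each family with the block and for the 2 brightest of each family. Members and lists were chosen with earlier results of these data known. RefSeq matched all 49 members by identifier and 42 by promoter. The build of the probe annotation is not given in the sources used here. Array number limits the precision.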

Additional observations from a re-analysis of the deposited data

How the results depend on the processing

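Without the block, 0 members passed the adjusted threshold under every alternative run (quantile normalization, median centring, filters at the 25th percentile and the median of intensity, probe-set means, an intensity trend and leaving out arrays or pairs). These runs called from 2 to 13 of all genes tested higher and 0 or 1 lower. With the replicate block the count was 1, Gsta4, also with quantile normalization, centring or either filter. Over all genes, 16 were called higher and 2 lower with the block alone. These counts were 20 and 2 with quantile normalization added and 17 and 2 with centring. The filters called 13 and 1 of 16635 genes (25th percentile) and 41 and 11 of 11090 (median). Blocked with an intensity trend, 4 members passed (Gsta4, Gstm3, Gstp3, Ugt2b5), a setting that called 157 genes higher and 150 lower. With the block and any 1 pair left out, no member passed. Of all genes, 10, 6 and 4 were then called higher and 3, 0 and 0 lower without pair 1, 2 or 3. Combinations with the block were chosen after seeing the data. The replicate block changed the count higher at an unadjusted p under 0.05 from 5 to 9 and the count lower from 1 to 3; filters at the 25th percentile and the median, which test fewer genes, gave 3 and 2 higher and 0 lower, and centring gave 0 lower. With arrays or pairs left out these counts ran from 1 to 9 and from 0 to 1. Non-overlapping members numbered 3 higher with the median filter, and 1 lower with centring and 0 with the filters. The lower ones, Sult3a1, Sult6b1 and Ugt2b37, are all too dim for the filters, which leave them out. With arrays left out, non-overlapping members ran from 5 to 13 higher and from 4 to 8 lower, since fewer arrays overlap less. Members lower in all pairs numbered 2 with either filter, Gstp3 and Gstt1, since the rest are too dim for the filters. At or above the median intensity stood 25 members and 11091 genes. Of those genes, 425 lay wholly above, 807 wholly below and 2670 were lower in all pairs. No share of all genes was counted beside the unadjusted counts here, or beside the overlap and pair counts of the other alternatives. These describe the members alone. Leaving out arrays gave a GST median from 0.010 to 0.12 and a UGT median from 0.0078 to 0.25. It gave a SULT median from -0.028 to 0.060. The SULT median was 0.12 with the 25th percentile filter and 0.0010 with the median filter. These filters take out 14 and 19 of the 21 SULT genes, so the second median is that of Sult1a1 and Sult1d1 alone. Of 28 members with array values, 19 kept their sign in all settings. With an array or pair left out, the change of 16 of these 19 moved by over 1.5 times, and that of Gsta4, Sult2a7 and Sult6b1 did not. The others turned only with arrays left out, namely Gstp2 (from -0.030 to 0.14), Sult1a1 (from -0.053 to 0.24), Sult1d1 (from -0.28 to 0.037), Sult2a6 (from -0.022 to 0.39), Ugt2b1 (from -0.57 to 0.26), Ugt2b34 (from -0.13 to 0.093), Ugt2b36 (from -0.094 to 0.24), Ugt2b38 (from -0.045 to 0.26) and Ugt3a2 (from -0.079 to 0.49). The cause was not tested. The change of Gsta4 ran from 0.72 to 1.14. Dim probe sets, most of the SULT genes, limit what these arrays can show.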

Other observations

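9 probe sets of the families carried several symbols and stood outside the counts above. The first of 2 for the Ugt1a locus, whose genes share their last exons and include the bilirubin glucuronosyltransferase, had a log2 change of -0.046 with 8 symbols, and the second, with 5 symbols, 0.11. Of 3 probe sets that carry both Gsta1 and Gsta2, alpha class genes near Gsta4, together with predicted genes, the first measured 8.56, 9.48 and 8.42 with DMSO and 8.80, 9.52 and 8.74 with GW4064, a change of 0.20. The second measured 9.67, 10.39 and 9.67 with DMSO and 9.79, 10.63 and 9.89 with GW4064, a change of 0.19, and the third had a change of -0.085. In the first 2, each GW4064 array was above the DMSO array of its number, as for Gsta4, and the groups overlapped. The probe sets shared by Gstz1 and Pomt2, by Gstm5 and 4933431E20Rik, by Gstp1 and Gstp2, and by Ugt2a1 and Ugt2a2 had changes of -0.10, 0.086, -0.0010 and -0.041. None of the 9 passed the limma adjusted threshold in either fit.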
